A study of Drosophila melanogaster with 8 samples.

Results

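The achaete-scute genes and the regulators around them were examined for Cph occupancy, as 10 genes chosen by name out of the 18277 genes of the annotation. They comprise the 4 genes of the achaete-scute complex on X, *ac*, *sc*, *l(1)sc* and *ase*, and 6 genes elsewhere, *da*, *emc*, *phyl*, *ttk*, *klu* and *mira*. Each gene was taken as its body plus 3 kb upstream, its window, and the achaete-scute interval was taken as all DNA from the first base of the *ac* window to the last base of the *ase* window. Cph (Chronophage) is a zinc-finger transcription factor, the *Drosophila* relative of the human proteins BCL11A and BCL11B. Its binding was profiled by NanoDam, in which a nanobody carries Dam methylase to a YFP-tagged protein, so that GATC sites near the protein become methylated and are sequenced. Cph NanoDam midguts came from flies with endogenously tagged CphYFP and *UAS-NanoDam* crossed to *esgTS*, and the NanoDam-only control came from *UAS-NanoDam* crossed to *esgTS*, without the tagged Cph. Both genotypes were reared at 18 °C, shifted to 29 °C for 17 h as adults aged 3 to 5 days, and collected as 4 replicates of 30 pooled midguts each. The *esg* driver restricts NanoDam to the progenitors, so that stem cells and their immediate daughters are profiled together as a mixture. Replicates 3 and 4 of both genotypes carry a batch label and replicates 1 and 2 carry none.

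Proneural proteins of the achaete-scute complex are basic helix-loop-helix transcription factors that pair with Daughterless (*da*) and bind E boxes, and Extramacrochaetae (*emc*) lacks the basic region and holds them in inactive pairs. In the adult midgut, Scute drives progenitors towards the enteroendocrine fate, the zinc-finger repressor Tramtrack (*ttk*) blocks that fate, and Phyllopod (*phyl*) directs Tramtrack to degradation. Klumpfuss (*klu*) is a zinc-finger factor of enteroblasts that keeps them from the enteroendocrine fate, and Miranda (*mira*) is the adaptor that sorts the fate determinant Prospero in dividing cells. These are the upstream and downstream steps of enteroendocrine commitment, and the question addressed is which of them carried Cph-dependent methylation.

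The deposited data are peak lists. A list was called for each Cph library against the control of the same replicate number, giving 4 Cph-over-control lists, and a list was called for each of the 8 libraries without a control. MACS2 counted 55557571 to 125721243 reads per library, and in each pair the control was the deeper library, by a factor of 1.14 to 1.31. Fold enrichment is the pileup of a peak over its background, where the background is the control library in the first kind of list and the library itself in the second. The files give no read counts per site, so no counting interval can be given. Peaks of methylated DNA do not measure expression, and the labelled cell type could only be compared with marker windows as a description. In the control libraries, the mean share of the window in peaks was 39.8% for *esg*, 36.3% for *Dl* (*Delta* in the annotation) and 27.2% for *Su(H)* among the progenitor markers. It was 25.02% for *Myo31DF* and 7.37% for *nub* among the enterocyte markers, and 7.55% for *pros*, 3.89% for *Tk* and 1.86% for *AstC* among the enteroendocrine markers. The enterocyte marker *Myo31DF* thus lay near *Su(H)*.

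Cph-over-control peaks of all 4 replicates met at *emc*, *phyl*, *ttk*, *klu* and *mira*, and did not meet over the required length in the short windows of the proneural genes. A shared region is a stretch of at least 200 bp that a Cph-over-control peak covers in every one of the 4 replicates. Shared regions lay in the windows of 5 of the 10 genes, *emc*, *phyl*, *ttk*, *klu* and *mira*, and in none of the windows of *ac*, *sc*, *l(1)sc*, *ase* and *da*. Over all genes, 35.5% of windows held a shared region, and the windows differ in length. Among the 1000 protein-coding genes nearest in window length, the share with a shared region was 25% for *ac*, 30.5% for *sc*, 28.3% for *l(1)sc*, 40.6% for *ase* and 48.1% for *da*, so a window of these lengths without one was the more frequent outcome. The count depended on the peak threshold: when peaks below a fold enrichment of 2 were dropped, *klu* was the single gene with shared regions, and at a minimum of 3 there was none. The 5 genes held 17 shared regions, of which *klu* held 8, *emc* and *mira* 3 each, *ttk* 2 and *phyl* 1, and the achaete-scute interval held 5 more, all outside the 4 windows. Of these 22 regions, 15 lay in introns with no exon of any annotated gene, and 20 (90.9%) overlapped peaks of all 4 control libraries. Among all 7289 shared regions of the genome, 84.1% overlapped peaks of all 4 control libraries. Any overlap counted, and it could be partial. Most of these sites therefore overlapped places that NanoDam alone also methylated.

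For *emc*, *ttk*, *klu*, *mira* and the achaete-scute interval, the region with the highest fold enrichment in its weakest replicate is shown here as sequence, and the *phyl* region is given further on by position only. The sequences are shown so that the methylatable sites and the motifs can be seen. Each line gives the central 200 bases of the region on the plus strand of BDGP6, read from the reference genome, with every GATC, the Dam site, in capitals together with every TGACCA, the hexamer bound by human BCL11A, on either strand. The 5 stretches are *emc* (3L:747665-747864), *ttk* (3R:31719866-31720065), *klu* (3L:11004733-11004932), *mira* (3R:19933315-19933514) and the achaete-scute interval (X:420555-420754).
emc: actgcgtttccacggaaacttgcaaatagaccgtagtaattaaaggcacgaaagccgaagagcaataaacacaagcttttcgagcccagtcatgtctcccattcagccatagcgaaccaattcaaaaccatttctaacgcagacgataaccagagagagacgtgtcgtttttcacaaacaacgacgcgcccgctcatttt
ttk: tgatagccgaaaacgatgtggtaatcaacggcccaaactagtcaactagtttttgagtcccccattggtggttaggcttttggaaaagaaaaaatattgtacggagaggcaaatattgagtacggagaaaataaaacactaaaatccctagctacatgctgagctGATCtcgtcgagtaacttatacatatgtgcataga
klu: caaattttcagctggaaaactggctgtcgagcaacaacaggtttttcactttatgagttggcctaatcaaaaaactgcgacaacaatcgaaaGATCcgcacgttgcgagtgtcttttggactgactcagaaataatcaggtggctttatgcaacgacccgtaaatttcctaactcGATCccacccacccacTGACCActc
mira: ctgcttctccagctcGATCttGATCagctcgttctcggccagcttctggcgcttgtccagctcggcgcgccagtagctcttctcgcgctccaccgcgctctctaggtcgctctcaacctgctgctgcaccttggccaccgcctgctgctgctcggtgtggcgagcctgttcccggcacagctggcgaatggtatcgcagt
achaete-scute interval: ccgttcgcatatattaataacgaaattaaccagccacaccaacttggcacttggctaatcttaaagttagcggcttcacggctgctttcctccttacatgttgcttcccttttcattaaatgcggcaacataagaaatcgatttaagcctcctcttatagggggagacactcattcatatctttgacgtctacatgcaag

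The *klu* stretch holds 2 GATC sites and 1 TGACCA and the *mira* stretch 2 GATC sites, whereas the *emc* stretch and the stretch of the achaete-scute interval hold none of either. Methylation falls on the GATC sites at the ends of a sequenced fragment, so a peak can cover DNA without the motif. In the central 200 bases of the 22 regions, TGACCA on either strand occurred in 2 (9.09%), against 13.3% of all 7289 shared regions. The E box CANNTG, to which proneural proteins and Daughterless bind, occurred in 15 of the 22 (68.2%), against 68.7% of all. GATC occurred in 12 of the 22 (54.5%), against 50.2% of all. The motif content of the regions at these genes was thus near that of shared regions in general, and a match is a description of the letters and not a binding site.

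*klu* held the most shared regions of the 10 genes, in the longest window. They covered 9.99% of its window, against 23.5% at *mira*, 8.19% at *emc*, 5.35% at *ttk* and 2.55% at *phyl*. The gene lies on the minus strand at 3L:10981171-11009188 (FBgn0013469), and its window of 31.0 kb holds 108 GATC sites. Its 8 shared regions were spread from 1592 to 25549 bp after the gene start, 7 of them in introns and 1 in the coding sequence of an exon. The 1000 protein-coding genes nearest in window length held 1.95 shared regions on average, with a median of 1. The strongest region, 3L:11004537-11005127 in an intron, 4356 bp after the start, had a Cph-over-control fold enrichment of 2.90, 4.12, 3.54 and 2.59 in replicates 1 to 4. All 4 replicates were above 2.5 there, and by the weakest replicate the region stood at percentile 96.0 of all shared regions. The neighbouring region, 5832 bp after the start, had 2.34, 4.16, 4.11 and 3.10. Replicate 1 was the lowest of the 4 at this second region, as replicate 4 was at the first. In the other 6 regions the weakest replicate had a fold enrichment between 1.53 and 2.14.

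**Figure D1:**
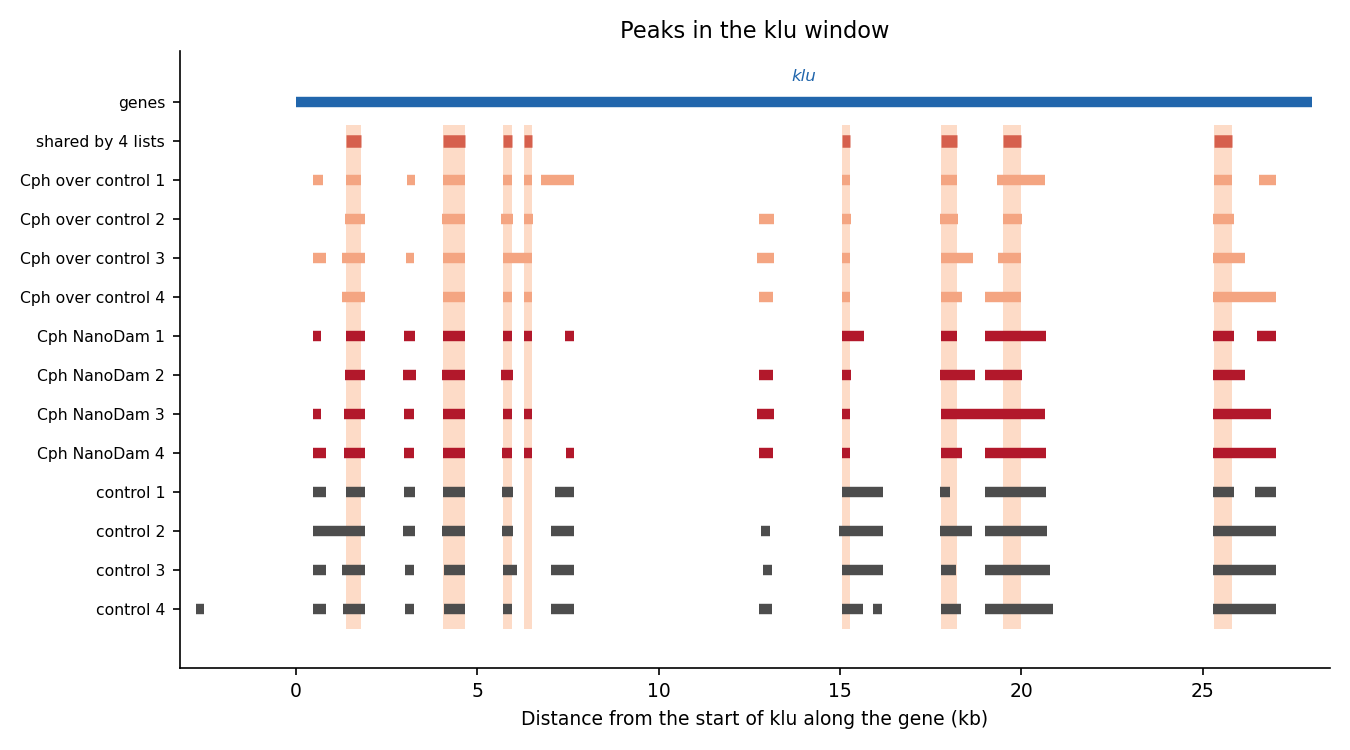
Peaks in the *klu* window by distance from the gene start along the gene (kb). Rows show the gene, the shared regions, the 4 Cph-over-control lists and the 8 lists called without a control, and bars mark the extent of each peak. Most shared regions (shaded) overlap control peaks. The region 6394 bp after the start overlaps none.

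One *klu* region stood out from the others in the control libraries. At 3L:11002690-11002898, in an intron 6394 bp after the start, no control library had a peak, whereas Cph replicates 1, 3 and 4 had a peak without a control, of fold enrichment 1.73, 1.67 and 2.21. Cph replicate 2 had none there when called without a control, although its Cph-over-control peak had a fold enrichment of 1.53. Over the genome, 208 of the 7289 shared regions (2.85%) lay in no control peak. The peak of replicate 3 was a single one that spanned this region and the one at 5832 bp, so both carry its fold enrichment of 4.11.

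*emc*, the inhibitor of proneural pairing, held 3 shared regions, the strongest of them upstream of the gene. The gene lies at 3L:749400-753492 on the plus strand (FBgn0000575), inside an intron of *hng3*, and its window holds 24 GATC sites. The upstream region, 3L:747657-747871, lies in the *hng3* intron, with its centre at -1636 bp from the start. Its Cph-over-control fold enrichment was 1.88, 3.80, 3.05 and 2.47 in replicates 1 to 4. Replicate 1 was the lowest and replicate 2 the highest. Another region lay in the coding exon 567 bp after the start, with fold enrichments of 1.71 to 1.96. The last, 3L:753336-753980, overlapped the 3′ UTR but lay mostly past the end of the gene, and had 1.38 to 2.38. Genes of like window length held 0.682 shared regions on average, and 45.8% of them held any.

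*mira* held 3 shared regions within the gene at 3R:19931799-19935120 (FBgn0021776, minus strand), which itself lies in an intron of *Hs6st*. The longest, 979 bp in the coding exon at 3R:19932925-19933903, had fold enrichments of 1.70, 1.61, 2.42 and 2.11. Replicates 1 and 2 were below both replicates of batch 2. The other regions, centred 773 bp and 218 bp after the start, were covered in replicates 1 and 2 by peaks that each spanned both regions, of fold enrichment 1.53 and 2.42, and in replicate 3 a single peak of 2.42 spanned all 3. A window of this length held 0.622 shared regions on average among like-length genes.

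*ttk* and *phyl*, which act against each other, showed less. *ttk* (FBgn0003870, 3R:31713867-31735392, plus strand) has a window of 24.5 kb with 2 shared regions, where genes of like window length held 1.77 on average. The intronic one at 3R:31719539-31720391 had fold enrichments of 1.38, 1.49, 1.68 and 1.69, and the one in a coding exon 19969 bp after the start had 1.28, 1.19, 1.71 and 1.50. Both were among the weakest shared regions of the genome, at percentiles 13.3 and 0.974 by the weakest replicate. *phyl* (FBgn0013725, 2R:14427336-14432337, minus strand) had 1 region of 204 bp in its intron, at 2R:14431018-14431221, with 1.81, 1.93, 2.28 and 2.17, and genes of like window length held 0.724 on average. All 4 replicates of this region lay within a narrow range, and its percentile of 64.3 by the weakest replicate was above that of both *ttk* regions.

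*da*, the common partner of the proneural proteins, came short of the length required. At *da* (FBgn0267821, 2L:10388105-10393228, plus strand) there were 2 stretches in all 4 lists. The longer, of 190 bp, overlaps a coding exon of the neighbouring *Cdk1*. The shorter, 2L:10390994-10391163, lies over the *da* coding exon. Around the shorter one, a stretch of 827 bp over the *da* coding exon was covered in at least 3 of the 4 lists. With a minimum length of 1 bp, *da* became the sixth gene with shared occupancy.

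In the windows of the 4 proneural genes no stretch was in all 4 Cph-over-control lists, though peaks of 3 lists met at *sc* and at *ase*. *ac* (FBgn0000022, X:370031-370947) had no peak in any Cph-over-control list. *sc* (FBgn0004170, X:396060-397497) had 3, 1, 1 and 1 peaks in replicates 1 to 4, with fold enrichments from 1.58 to 2.42. The longest stretch at *sc* that 3 of the 4 lists had in common was 447 bp, about 1 kb upstream of the gene, and replicate 4 had its only peak inside the gene. *l(1)sc* (FBgn0002561, X:409721-410817) had peaks in replicates 1 and 3 alone, of fold enrichment up to 1.81. *ase* (FBgn0000137, X:460747-463176) had peaks in replicates 1 to 3, which met in 364 bp upstream of the gene, and none in replicate 4. When peaks of at least 3 replicates sufficed, *sc*, *ase* and *da* joined the 5 genes, which then made 8 of the 10, and 56.7% of all genes met that rule.

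In the interval, the regions shared by all 4 lists lay between *l(1)sc* and *ase*, while peaks of fewer lists also lay elsewhere. The achaete-scute interval spans 96.1 kb (X:367031-463176) with 433 GATC sites, and the whole of it lies within *CG32816*. All 5 shared regions lay between *l(1)sc* and *ase*, in introns of *CG32816*. They fell into groups, with none between X:424877 and X:439800. Their outer ends set a span from X:420517 to X:443807. Of the Cph-over-control peaks of the interval, 12 of 21 in replicate 1 and 9 of 16 in replicate 2 lay outside that span. In replicates 3 and 4, 5 of 15 and 1 of 6 did. The strongest by its weakest replicate, X:420517-420792, lies 10933 bp after the start of *l(1)sc* and had fold enrichments of 2.67, 3.71, 2.24 and 2.25. About 1 kb further, X:421588-421796 had 2.14, 2.33, 3.58 and 3.32. The first was higher in replicates 1 and 2 on average and the second in the batch-2 replicates 3 and 4. The remaining regions at X:424477-424877, X:439800-440008 and X:443599-443807 had fold enrichments of 1.32 to 1.75, 1.88 to 2.30 and 1.94 to 2.35. Of the bases of the interval, 86.4% were in no Cph-over-control list and 1.36% were in all 4.

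**Figure D2:**
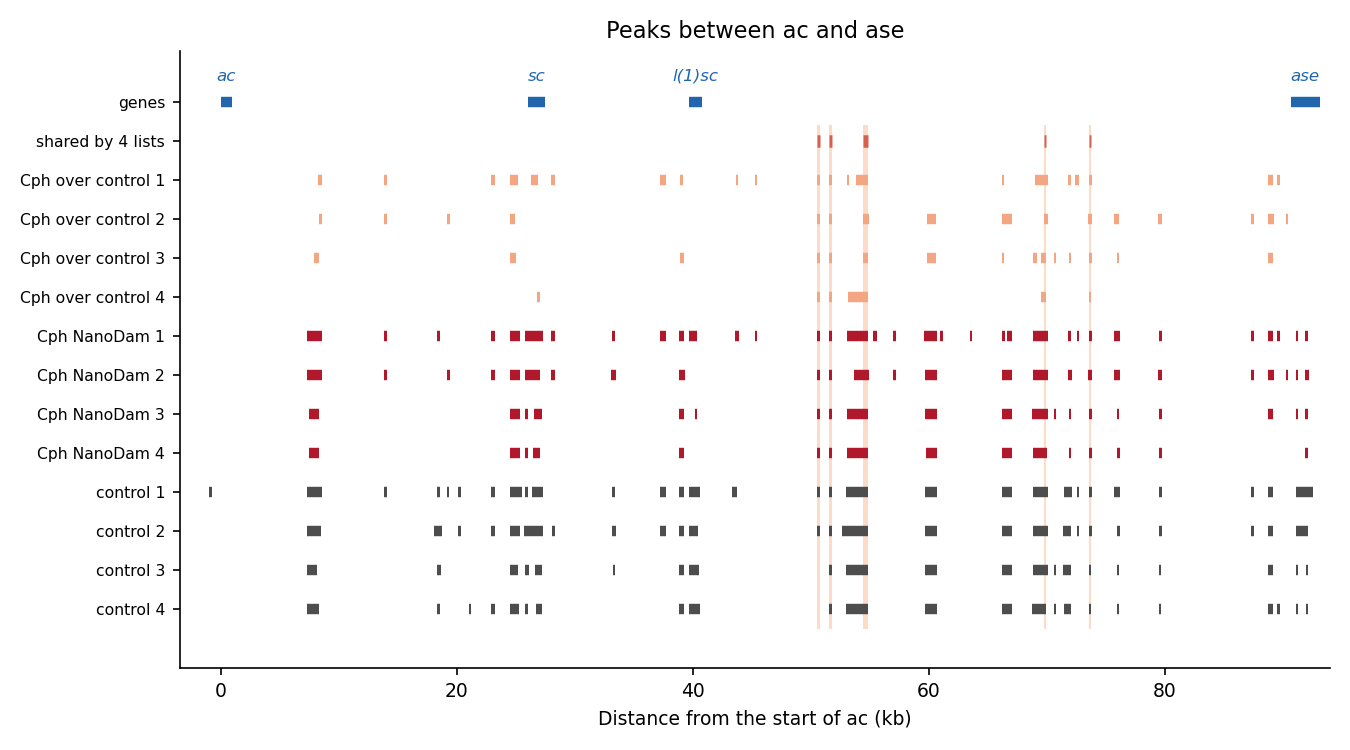
Peaks across the achaete-scute interval by distance from the start of *ac* (kb). Rows show the 4 genes, the shared regions, the 4 Cph-over-control lists and the 8 lists called without a control. The 5 shared regions (shaded) lie between *l(1)sc* and *ase*, and the *ac* gene itself is free of peaks.

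The longest stretch of the interval without a peak in any of the 8 libraries contained *ac*. It spanned 8.04 kb, from X:369270 to X:377305 and held 38 GATC sites, which are the sites that Dam can methylate. The next lay upstream of *ase*, 7.57 kb from X:449816 to X:457383 with 27 GATC sites. Across the whole interval, peaks held 9.62% to 17.2% of bases in Cph NanoDam and 12.3% to 18.0% of bases in the controls. Relative to the share of the X chromosome in peaks, the interval had a ratio of 1.30 to 1.37 in replicates 1 and 2 of either genotype, but of 0.833 to 1.01 in replicates 3 and 4. The replicate sets were further apart in this ratio than the genotypes were.

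Cph and control libraries can be set against each other in the lists that used no control. For each gene, the share of its window in peaks was compared between the 4 Cph and the 4 control libraries with an exact permutation test (two-sided, 70 arrangements, smallest possible p 0.0286). None of the 10 genes reached p under 0.05, whereas 8.19% of the 16233 genes tested did, and with adjustment over all genes no gene passed. limma on the same shares gave 3 of the 10 genes an unadjusted p under 0.05 (*l(1)sc*, *emc* and *klu*) and none after adjustment over all genes, against 15.1% of all genes tested unadjusted and 172 of them (1.06%) adjusted. All 10 genes had the lower mean in the Cph libraries, with a median difference of -3.51 percentage points. Over all genes the median difference was -1.28, and 65.2% of them were lower. The 10 genes also started from a higher level. The median of the control means was 35.6% over the 10 and 20.6% over all genes tested. When each share was divided by the share of the genome in peaks of its library, 5 of the 10 were lower. In 5 of the 10, *l(1)sc*, *ase*, *emc*, *phyl* and *klu*, the Cph library was the lower one in each of the 4 pairs, as it was for 17.8% of all genes tested. The progenitor markers *Dl* and *Su(H)* had differences of -8.02 and -8.11 percentage points (p = 0.0286 each, exact permutation test, n = 4 per genotype, adjusted p = 0.349), and *esg* had -0.090. Every Cph library was shallower than its control, and the windows of *Dl* and *Su(H)* also had lower shares. The part of either in the lower shares of the 10 genes was not tested.

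**Figure D3:**
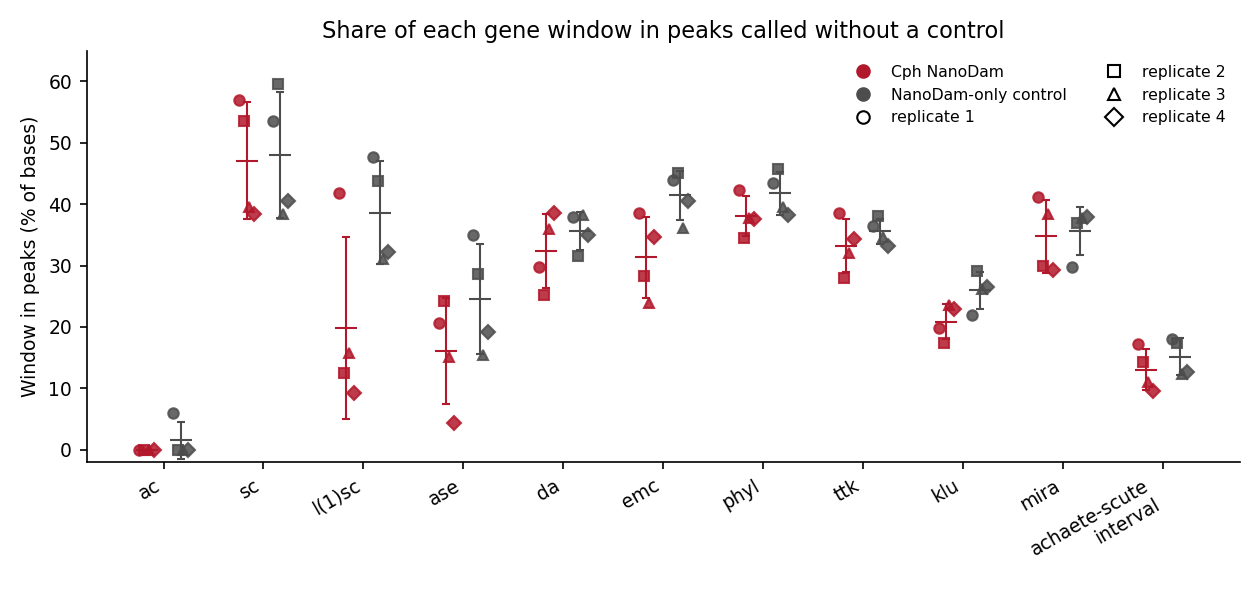
Share of each gene window, and of the achaete-scute interval, in peaks called without a control (% of bases). Symbols are single libraries by replicate number, and bars are the mean ± SD (n = 4 per genotype); the genotypes overlap for every gene.

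Among the proneural genes the levels differed widely. *ac* had 0% of its window in peaks in all 4 Cph libraries and in control replicates 2 to 4, and 6.03% in control replicate 1, which had a single peak upstream of the gene. *sc* had 57.0%, 53.5%, 39.5% and 38.4% in Cph replicates 1 to 4 and 53.6%, 59.6%, 38.3% and 40.5% in the controls. Both genotypes had the higher values in replicates 1 and 2, and they overlapped fully. *l(1)sc* had 41.8%, 12.5%, 15.7% and 9.30% in the Cph libraries and 47.7%, 43.7%, 31.0% and 32.1% in the controls. Cph replicate 1 lay within the range of the controls and the other 3 Cph libraries lay below it (p = 0.0857, exact permutation test, n = 4 per genotype, adjusted p = 0.487). *ase* had 20.6%, 24.3%, 15.1% and 4.33% against 35.0%, 28.7%, 15.4% and 19.1% (p = 0.257, exact permutation test).

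The difference at *l(1)sc* lay mainly over the gene body. A control peak began at -3 bp from the gene start in each of the 4 control libraries and reached 766 to 919 bp into the gene, so that 83.9%, 69.9%, 78.5% and 82.0% of the body was in peaks. In the Cph libraries, 63.7%, 0%, 19.1% and 0% was in peaks. Every Cph library lay below every control library, with a mean difference of -57.9 percentage points (p = 0.0286, exact permutation test, the smallest it can give). With adjustment over all genes the p was 0.419, and 6.81% of the 13060 gene bodies tested had an unadjusted p under 0.05. A second peak, upstream of *l(1)sc*, was present in all 8 libraries and did not set the genotypes apart: over the 363 bp common to all, centred at -659 bp, fold enrichment was 5.63, 4.37, 4.60 and 3.05 in the Cph libraries and 5.13, 4.76, 3.90 and 4.29 in the controls. When peaks below a fold enrichment of 2 were dropped, the *l(1)sc* window had 10.9% ± 1.33 (SD, n = 4) in the Cph libraries. The controls had 31.9% ± 1.55, with no overlap (p = 0.0286, exact permutation test, adjusted p = 0.467). This minimum removed the body peaks of Cph replicates 1 and 3, whose fold enrichments were 1.99 and 1.76, so that no Cph library kept a body peak. The small spread of the Cph libraries and the lack of overlap therefore depend on the cutoff. *phyl* was the other gene with no overlap, where 6.11% of all genes tested had p under 0.05.

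**Figure D4:**
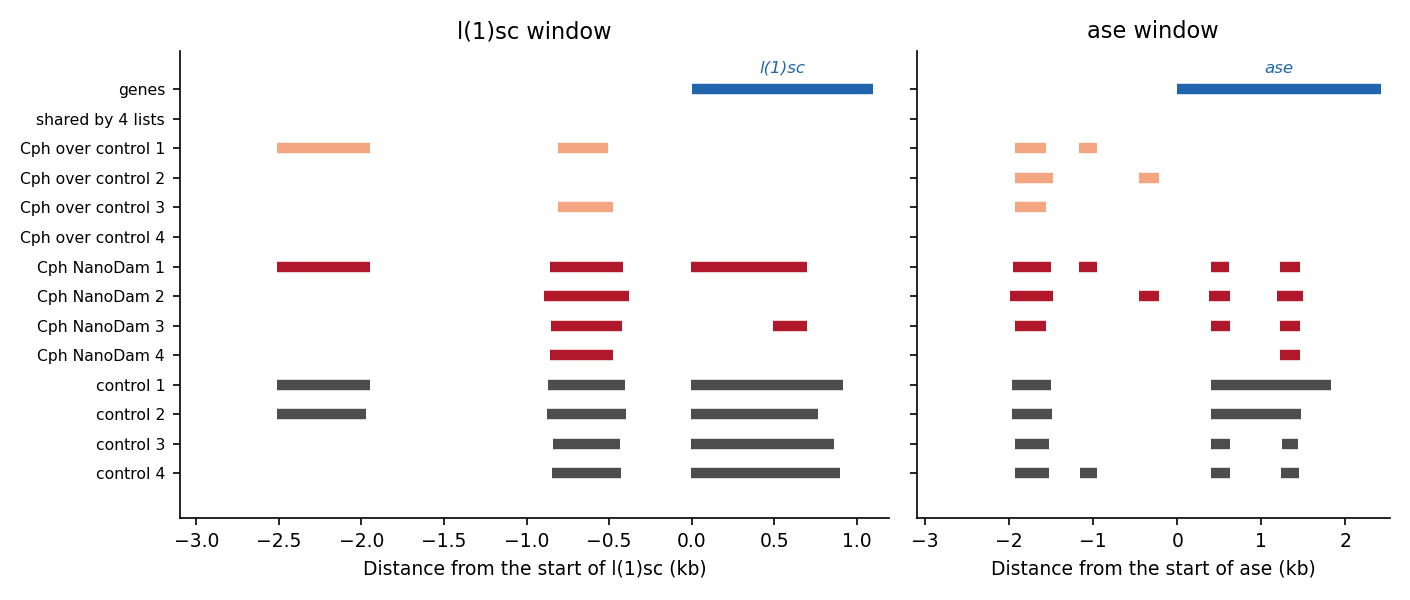
Peaks in the windows of *l(1)sc* and *ase* by distance from each gene start (kb). The peak over the *l(1)sc* body is in all 4 control lists, in Cph replicate 1, as a short peak in Cph replicate 3 and not in Cph replicates 2 and 4. The upstream peak near -659 bp is in all 8 lists called without a control. The peak starting at -2512 bp is in Cph replicate 1 and control replicates 1 and 2 alone.

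Within *ase*, 2 sites in the coding part of the gene recurred. One began 402 bp after the start in most libraries, and the other, centred about 1.3 kb after the start, was in a peak in all 8 libraries. Fold enrichment of the peak over the second site was 5.69, 3.87, 7.57 and 4.52 in the Cph libraries and 4.11, 3.75, 10.3 and 11.3 in the controls, where those of control replicates 1 and 2 were long peaks that took in both sites. In Cph replicate 4 this was the only peak of the *ase* window.

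The genes outside the complex had shares that overlapped between the genotypes. *emc* had 38.6%, 28.3%, 23.8% and 34.7% in the Cph libraries and 44.0%, 45.1%, 36.1% and 40.5% in the controls (p = 0.0571, exact permutation test, adjusted p = 0.437). A single Cph library, replicate 1, lay above the lowest control. *klu* had 19.7%, 17.4%, 23.5% and 22.9% against 21.9%, 29.1%, 26.2% and 26.5% (p = 0.0857, exact permutation test), and again the ranges overlapped at their edges. *da* had 32.4% ± 6.05 (SD, n = 4) and 35.7% ± 3.09, *phyl* 38.0% ± 3.23 and 41.8% ± 3.49, *ttk* 33.2% ± 4.37 and 35.6% ± 2.07, and *mira* 34.7% ± 5.98 and 35.6% ± 3.92 in the Cph and control libraries. For *da*, *ttk* and *mira* at least 1 replicate pair went in the opposite direction to the means.

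Where all 8 libraries had a peak, the height of the peaks could be compared. Stretches of at least 200 bp in peaks of all 8 libraries, the common regions, numbered 16229 in the genome and 43 in the windows and the interval. Log2 fold enrichment was fitted with limma over all common regions. The value of a library is that of its whole peaks over the region, and their widths differ between libraries. None of the 43 passed an adjusted p of 0.05, against 30 of all common regions (0.185%), and 5 of the 43 had an unadjusted p under 0.05, against 15.1% of all common regions. In 3 of the 43 (6.98%) the genotypes did not overlap, against 8.96% of all common regions. The median difference of Cph minus control was 0.03 on the log2 scale over the 43 and 0.08 over all, and 23 of the 43 (53.5%) were higher in the Cph libraries, against 61.5% of all common regions.

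**Figure D5:**
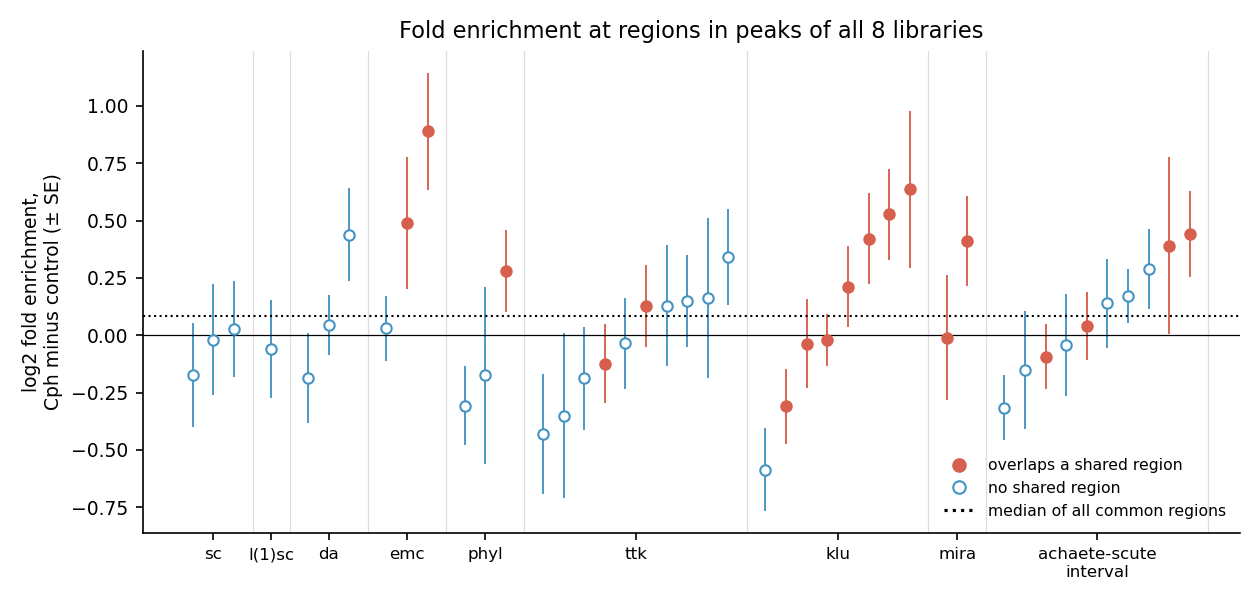
Difference in log2 fold enrichment, Cph minus control, at the 43 common regions, grouped by gene (points, with ± SE from limma; n = 4 per genotype). Filled points overlap a shared region, and the dotted line is the median of 0.08 over all common regions; the upstream region of *emc* is the highest point and an intronic region of *klu* the lowest.

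The region upstream of *emc* had the largest gain of the 43. At 3L:747657-747886, fold enrichment was 4.26, 9.30, 6.89 and 4.61 in the Cph libraries and 3.98, 2.99, 2.88 and 3.12 in the controls. These are values of whole peaks, which were wider in the controls. The Cph peaks ended at 3L:747886 or 747904 and the control peaks between 748131 and 748163. The part of peak width in the difference was not tested. Every Cph library lay above every control, by 0.89 ± 0.26 (SE) on the log2 scale, by 0.87 within replicates 1 and 2 and by 0.91 within replicates 3 and 4 (limma, adjusted p = 0.164). A second *emc* region, over the 5′ part of the gene, had 2.19, 3.61, 6.08 and 3.66 in the Cph libraries, and its mean log2 fold enrichment was 1.87 ± 0.60 (SD, n = 4) there and 1.38 ± 0.34 in the controls, with overlap (limma, adjusted p = 0.444).

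*klu* had regions that went both ways. At the region 25571 bp after the start, in the coding exon, fold enrichment was 4.67, 7.43, 7.10 and 5.79 in the Cph libraries and 4.14, 3.94, 4.32 and 4.71 in the controls, 0.53 ± 0.20 (SE) higher on the log2 scale (limma, adjusted p = 0.251). The strongest shared region, 4364 bp after the start, had 7.92, 8.13, 6.68 and 5.82 against 6.38, 4.73, 4.92 and 5.25, and only Cph replicate 4 fell within the controls. An intronic region 3125 bp after the start, at 3L:11005938-11006188, had 3.26, 2.98, 3.70 and 3.32 against 3.95, 5.06, 5.79 and 5.21. There every Cph library was below every control, with a log2 difference of -0.59 ± 0.18 (SE; limma, adjusted p = 0.183), but with log2 pileup scaled to total reads in place of fold enrichment the difference was 0.08.

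At *mira*, the region over the start of the gene, 3R:19934199-19935013, had 4.29, 6.60, 4.25 and 4.77 in the Cph libraries and 4.24, 3.30, 3.58 and 3.66 in the controls. In Cph replicate 3 and control replicate 2 a single peak also spanned the region centred 1730 bp after the start. Their values of 4.25 and 3.30 therefore hold for both regions. The genotypes did not overlap, although by a narrow margin, with a log2 difference of 0.41 ± 0.20 (SE; limma, adjusted p = 0.346). At *da*, a region over the coding exon had 2.04, 4.25, 2.66 and 2.62 against 2.06, 1.94, 2.02 and 2.22, where Cph replicate 1 lay among the controls. The peak of Cph replicate 2 was confined to that region, 2L:10390949-10391241, whereas the longer peaks of all other libraries began at 2L:10390310. The 10 common regions of *ttk* split evenly into 5 higher and 5 lower.

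In the achaete-scute interval, the largest gain lay at -17027 bp from the start of *ase*. Fold enrichment there was 3.40, 3.44, 3.91 and 4.03 in the Cph libraries and 2.30, 2.25, 2.93 and 3.57 in the controls, 0.44 ± 0.19 (SE) higher on the log2 scale (limma, adjusted p = 0.302). Control replicate 4 lay within the Cph range. Of the common regions of the interval outside the gene windows, the one with the highest mean log2 fold enrichment in both genotypes, 20543 bp after the start of *l(1)sc*, ranged from 6.32 to 10.2 with Cph and from 7.47 to 9.61 in the controls and is no shared region. Near *ac*, the first region that all 8 libraries had in common, 7805 bp after its start, had 1.66 to 2.26 against 2.15 to 2.65, lower in the Cph library of every pair (log2 difference -0.32 ± 0.14, SE; limma, adjusted p = 0.325).

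Genes that act with these 10 were described from 4 lists. Of 6 proneural relatives and cofactors, only *chn* held shared regions, 3 of them, and *ato*, *amos*, *cato*, *tap* and *sens* held none. Of 6 regulators of the achaete-scute complex, *pnr* and *ush*, which encode the GATA factor Pannier and its cofactor, held 5 each and *mirr* 1, whereas *ara*, *caup* and *h* (*hry* in the annotation) held none. Both *sina* and *ebi*, which act with Phyllopod in the turnover of Tramtrack, held 2. All 7 asymmetric division partners of Miranda held shared regions, from 1 at *pon* to 8 at *baz*, with 7 at *brat* and 3 at *pros*. Together 13 of the 21 held at least 1, beside 35.5% of all genes, and windows in these lists ranged up to 82.1 kb. In the share of the window in peaks, *pon* was the only one of the 21 with p under 0.05 (19.3% in the Cph and 24.6% in the control libraries, p = 0.0286, exact permutation test, n = 4 per genotype, adjusted p = 0.349). Among all 16233 genes tested, 8.19% had p under 0.05, so a single gene of 21 is no more than the rate over all genes.

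Across the 8 libraries, the genes on other chromosomes whose window shares were most like those of *klu* were *CG2747* (Pearson r = 0.977), *asRNA:CR45281* (0.972) and *CG9555* (0.971), out of 10669 genes compared. The 8 points share their libraries and their depth, and the values are given as a description.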

How the data were processed

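NanoDam libraries of Cph NanoDam and NanoDam-only control midguts (4 each, single-end reads of 86 bp) were used as peak lists. Per the methods and the submitters' processing notes, the authors trimmed reads with Trim Galore 0.6.10, aligned them with Bowtie2 2.5.4 to BDGP6, kept unique reads and ran MACS2 in broad mode (2.1.4 per the file headers, 2.2.9.1 per the notes; q of 0.05, broad cutoff of 0.1, all duplicates kept). Replicates were not pooled. The deposited fold enrichment is a ratio of pileup to local background, and the deposited −log10 q-value and pileup signal come from the same caller; the pileup was divided by the total reads of its library before use.

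Gene windows came from Ensembl release 115 and sequences from the RefSeq copy of the assembly. A shared region needed 200 bp in all 4 Cph-over-control lists and a common region 200 bp in all 8 lists without a control. Fold enrichment of a common region was the length-weighted mean log2 value of its peaks, tested with limma 3.58.1 (lmFit, eBayes with trend, Benjamini-Hochberg). Named were all 10 genes and the interval, per gene the region with the highest weakest fold enrichment, and the 3 genes most like the one with most shared regions; further regions were singled out after their values were seen. The members and lists were chosen with earlier results of these data known. The main tests compared the genotypes without pairing, and the replicate number served as a pairing in the counts of pairs and in alternatives. It was used since Cph peaks were called against the like-numbered control. In 54383 bins of 1000 bp, the departures of like-numbered libraries from the mean of their genotype also had correlations of 0.173 to 0.395. Cph replicate 3 with control 4 and Cph replicate 4 with control 3 gave 0.220 and 0.248, so within replicates 3 and 4 the number cannot be told apart from the batch. Alternatives covered thresholds, replicates, length, window, scaling and test. The steps were tested on simulated data: with 16229 regions, limma called 92 of 200 regions planted with a log2 difference of 1 and 0 of 200 planted with 0.5.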

Additional observations from a re-analysis of the deposited data

Results flagged for a closer look

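Of 48 groups of 4 libraries examined among the reported shares and fold enrichments, 4 had a library far from the other 3, where chance gives about 1 in 20. In the control libraries, replicate 1 had 6.03% of the *ac* window in peaks and the others 0%. The same replicate had 29.7% of the *mira* window in peaks, against 37.0% to 37.8% in the other controls, and a fold enrichment of 1.96 at the *mira* region centred 1730 bp after the gene start, against 3.06 to 3.30. At the *ttk* region centred 5635 bp after the gene start, control replicate 3 had a fold enrichment of 4.77, against 3.43 to 3.61. These are values of whole peaks. The peak of control replicate 3 ended at 3R:31719732, whereas those of the other controls ran to 3R:31720391. The part of peak width in this value was not tested.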

How the results depend on the processing

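The number of the 10 genes with a shared region was 5. It was 1 at a minimum fold enrichment of 2, 0 at a minimum of 3, 8 when 3 of the 4 replicates sufficed and 9 when 2 sufficed, and it ranged from 5 to 7 when each replicate was left out in turn. Minimum lengths of 500 bp and 1 bp, a −log10 q of at least 5 and the gene body alone gave 4 to 6. The number with a differing share at p under 0.05 in the exact permutation test was 0, and it was 2 at a minimum fold enrichment of 2 (*l(1)sc* and *phyl*) and 1 over gene bodies (*l(1)sc*). With 3 libraries per genotype the smallest p is 0.1, and with the replicate block (a sign-flip test of the 4 pairs) it is 0.125, so these counts of 0 say nothing of stability. With the replicate block in limma, 0 of the 43 common regions passed as well, though the calls among all common regions rose from 30 to 169. Those 30 fell to 0 without replicate 2, 3 or 4, and were 131 with scaled pileup and 52 after quantile normalisation. No alternative called any of the 43. The minimum length of 500 bp tested 18 of them, and the limit to regions of above-median mean fold enrichment tested 21.

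Several differences in window share changed sign. For *da* the difference was 1.78 percentage points at that minimum and 0.67 within replicates 3 and 4. For *sc* it was 2.21 over the gene body. Leaving out replicates in turn gave a range of -2.34 to 0.83 for *sc*, -3.83 to 0.21 for *ttk* and -4.97 to 1.71 for *mira*, and *mira* had 2.27 within replicates 1 and 2. Division by the share of the genome in peaks gave 4.79 for *sc*, 0.56 for *da*, 0.79 for *phyl*, 1.39 for *ttk* and 2.81 for *mira*, and moved the median over all genes from -1.28 to 0.48. At the *klu* region centred 3125 bp after the start, scaled pileup gave a log2 difference of 0.079. At the *mira* region centred 1730 bp after the start, it gave 0.37, the difference ranged from -0.17 to 0.22 with each replicate left out, and it was 0.33 within replicates 3 and 4. The cause of these changes was not tested.

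Peak lists hold no depth per site, and a site below the caller's threshold in one library counts as free of peaks whatever its reads.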
